A study of Mus musculus with 12 samples.

Results

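The 39 genes described here encode receptors for glutamate and GABA: 4 subunits of AMPA receptors, 5 of kainate receptors, 7 of NMDA receptors, the delta subunit Grid1, 7 metabotropic glutamate receptors, 11 subunits of GABA-A receptors, 2 rho subunits and the 2 subunits of the GABA-B receptor. They were chosen by gene symbol out of the 55401 genes of the deposited tables, not by a threshold on a measured value, and all 39 were found. Earlier results of these data were known when the list was made, so it is not independent of them. RNA-seq was performed on adult neural stem/progenitor cells (aNSPCs), cultured from the forebrain of C57BL/6 mice at 8 to 10 weeks of age and kept either under proliferating conditions or under differentiation conditions (retinoic acid and forskolin). Each condition had 3 control samples (Ctrl) and 3 samples exposed to 1 mM NAD+, so that 4 groups and 12 samples were compared. A field of the sample labels calls every sample untreated, and the groups follow the sample titles. The study describes the samples of a group as biological repeats, and the labels do not say whether they came from separate animals or cultures, so the p-values measure the spread between these samples.

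Glutamate is the main excitatory and GABA the main inhibitory transmitter of the adult brain. AMPA, kainate and NMDA receptors are cation channels assembled from subunits, and GABA-A receptors are chloride channels, whereas metabotropic glutamate receptors and the GABA-B receptor signal through G proteins. Neural progenitors and glial cells carry many of these receptors without forming mature synapses, and in young neurons a high chloride content can make GABA-A currents depolarizing.

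Expression is given as FPKM (mapped fragments per kilobase of a transcript, relative to all those of the sample), a level per length that can be compared between genes. Of the 39 genes, 7 had a mean of at least 10 FPKM over the 12 samples, 9 lay from 1 to under 10, 7 from 0.1 to under 1, and 16 under 0.1. In order of this mean, the highest were Gria4 (31.9 FPKM), Grik5 (24.3), Gria1 (24.1), Gabbr1 (20.3), Gabbr2 (18.1), Grm5 (13.4) and Gria2 (12.9), followed by Grid1 (7.64), Gabrg1 (6.40) and Grin3a (5.63). Neighbours in this order, such as Grik5 and Gria1, can lie closer than the spread between groups, since Gria1 differed strongly between the conditions. The 16 genes under 0.1 FPKM did not exceed 0.2 FPKM in any sample, and Grm6 and Gabra6 were listed at 0 in all 12. Those 16 were not tested, because genes were kept only with a mean of at least 0.1 FPKM over the samples compared, which left 22 members in each condition and 23 in the fit of all 12 samples. Among the 16, the NMDA subunits Grin2a, Grin2b and Grin2c and the GABA-A subunits Gabra3, Gabra5 and Gabrb2 had means from 0.0283 (Grin2c) to 0.0775 FPKM (Gabrb2), where the values are rounded to 0.01.

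**Figure D1:**
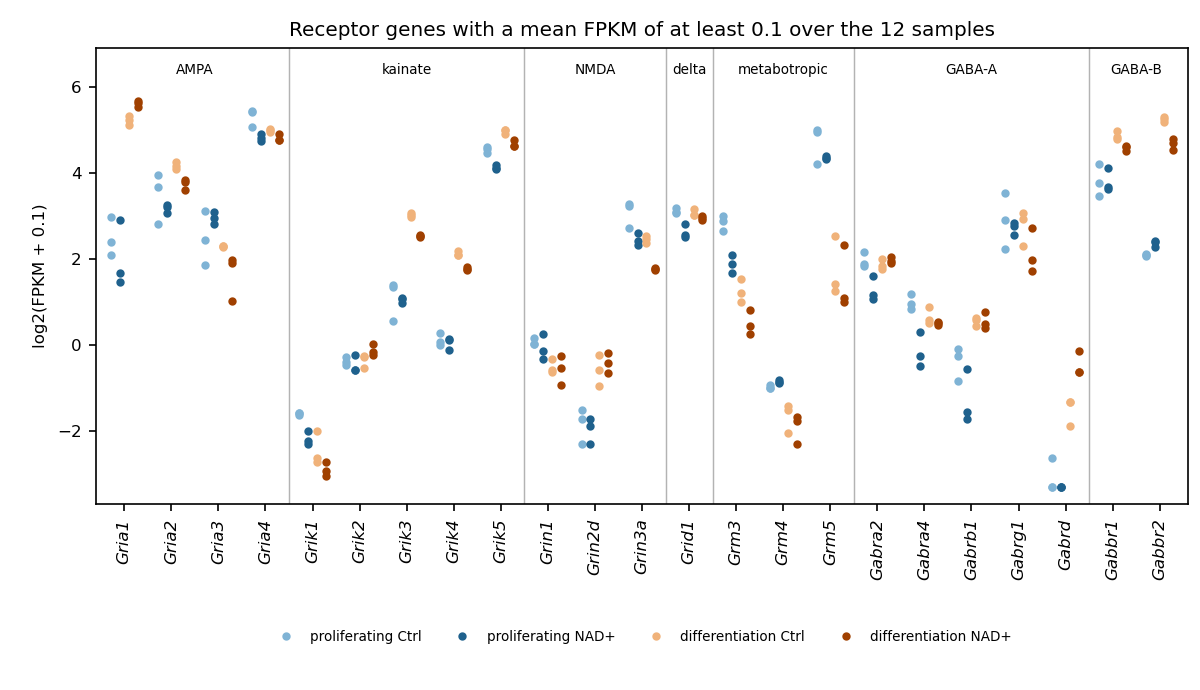
Level of each of the 23 receptor genes with a mean of at least 0.1 FPKM, as log2(FPKM + 0.1), by receptor family. Each point is 1 of 12 samples, in 4 colours for the 4 groups of 3. Gria1, Grik3, Grik4 and Gabbr2 sit higher in the differentiation samples, and Grm3 and Grm5 in the proliferating ones.

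The libraries carried progenitor and glial markers, and neuronal markers at lower summed levels. Sox2, a transcription factor of neural stem cells, was between 129 and 252 FPKM in all 12 samples, whereas Mki67, a marker of dividing cells, was between 19.8 and 45.4 FPKM under proliferating and between 0.35 and 0.69 under differentiation conditions. Among 9 neuronal marker genes, the summed level was 25.5 to 36.8 FPKM in proliferating Ctrl and 32.7 to 35.1 in proliferating NAD+. It was 36.0 to 40.9 in differentiation Ctrl and 35.0 to 35.6 in differentiation NAD+, where 4 of the 9 genes were higher and 5 lower than in Ctrl on the log2 scale. Map2, at 10.6 to 20.6 FPKM over the 12 samples, and Tubb3, at 8.23 to 14.2, weighed most in this sum. Rbfox3, which marks mature neurons, did not exceed 0.34. The summed level of 8 astrocyte markers was 1117 to 1196 FPKM in proliferating Ctrl, 911 to 1066 in proliferating NAD+, 1644 to 1766 in differentiation Ctrl and 1996 to 2108 in differentiation NAD+. That of 10 oligodendrocyte lineage markers was 1320 to 1422, 1052 to 1075, 790 to 843 and 535 to 563 in the same order. The astrocyte sum hides opposite moves with NAD+ under differentiation conditions, where 4 of the 8 genes were higher and 4 lower on the log2 scale. Gfap, which weighs most in that sum, went from a mean of 595 to 977 FPKM there, and Aldh1l1 from 93.5 to 61.3. The marker sums differed between the groups, not all in the same direction, and their part in the results for the receptor genes was not tested. In bulk RNA, fewer cells of a type and less RNA per cell cannot be told apart. The summed level of 7 stem/progenitor markers was 423 to 461 FPKM in proliferating and 192 to 198 in differentiation Ctrl, and 420 to 474 and 173 to 187 with NAD+. That of 4 ependymal markers was 9.6 to 11.55 FPKM in proliferating and 28.6 to 31.7 in differentiation Ctrl, and 10.2 to 10.9 and 25.4 to 30.4 with NAD+. The sums of 6 microglial and 6 vascular markers did not exceed 0.39 and 1.35 in any sample. Sample 1 of the proliferating Ctrl group stood apart, with Mki67 at 19.8 FPKM against 39.7 and 40.0 in the other samples of its group, and sample 1 of the proliferating NAD+ group had the astrocyte gene Gfap at 20.5 FPKM against 11.3 and 12.2. Aqp4 was highest in sample 1 of each, at 13.7 FPKM against 5.82 and 5.23 in Ctrl and 9.95 against 2.42 and 2.82 with NAD+. The same held for Aldh1l1 but not for every astrocyte marker, as Slc1a3 was lowest in Ctrl sample 1.

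The limma test used log2(FPKM + 0.1), which understates changes of low genes, and a gene was called at an adjusted p under 0.05 over all genes tested. Between differentiation Ctrl and proliferating Ctrl, 17 of the 23 tested receptor genes were called, 10 higher and 7 lower under differentiation conditions, where 56.7% of all genes tested were called, 25% higher and 31.6% lower. The median log2 difference was -0.04 for the members and -0.06 for all genes. The conditions were deposited as separate tables that may have been scaled separately, so that condition and table cannot be told apart. NAD+ against Ctrl under differentiation conditions gave 8 called members of 22 tested, 1 higher and 7 lower, against 6.92% of all genes (2.27% higher and 4.65% lower). Of the 22, 17 were below 0, against 61.8% of all genes, and 15 were below 0 with median-ratio scaling or with quantile normalization. Under these scalings 4 members were called, namely Gria1 higher and Grik3, Grin3a and Gabbr2 lower. Of all genes, 5.84% were then called with median-ratio scaling (3.11% higher and 2.73% lower) and 5.92% with quantile normalization (2.96% each way), without the larger share of lower calls in the unscaled values. Under proliferating conditions, 0 of 22 members were called by limma, against 0.145% of all genes. At an unadjusted p under 0.05, 8 members passed, 1 higher and 7 lower, against 15.4% of all genes (9.35% higher and 6.05% lower). Of these 22 members, 19 were below 0, also under each scaling, against 40.3% of all genes, and the median log2 difference was -0.34 against 0.07 for all genes. Without sample 1 of each proliferating group, a choice made after seeing the data, 0 members were called by limma and 18 of 22 were below 0. The rule of the study, an unadjusted p under 0.05 with a ratio of means over 2, was applied with the p of the limma fit. A gene that passes it here was therefore not necessarily listed by the study. By this rule, 1 member passed in the fit of all proliferating samples (3.01% of all genes) and 3 without the proliferating samples numbered 1 (3.5% of all genes), namely Grm3 (-1.16), Gabra4 (-1.26) and Gabrb1 (-1.09). Also without them, 16 members were called between the Ctrl groups (56.9% of all genes). The values of NAD+ and Ctrl did not overlap for 10 of 22 members under proliferating conditions (24.1% of all genes) and for 14 of 22 under differentiation conditions (30.7% of all genes), and those of the Ctrl groups for 17 of 23 (61.7% of all genes). The members are not independent of each other, and no p is given for the list.

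**Figure D2:**
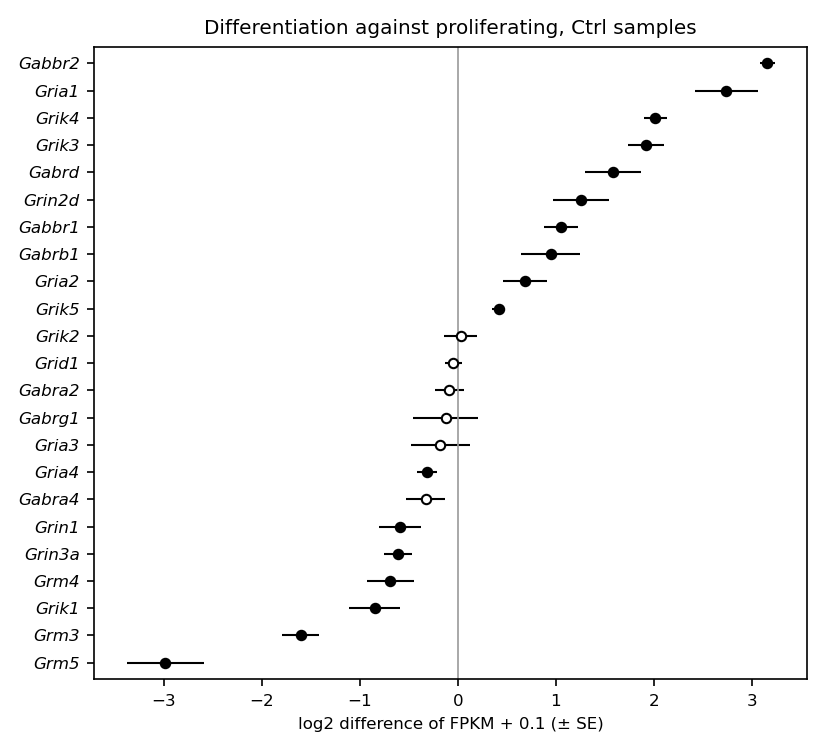
Log2 difference of FPKM + 0.1 between differentiation Ctrl and proliferating Ctrl (3 samples each) for 23 receptor genes, with the standard error of the limma fit as bars. Filled points have an adjusted p under 0.05; Gabbr2 (3.15) and Gria1 (2.74) are at the top and Grm5 (-2.98) at the bottom.

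AMPA receptors carry most fast excitatory transmission, and their 4 subunits combine into tetramers in which Gria2 makes the channel largely impermeable to calcium. Gria1 (ENSMUSG00000020524, chr11:57011387-57330244 of mm10) was at 7.70, 5.16 and 4.15 FPKM in proliferating Ctrl and at 34.3, 37.6 and 39.9 FPKM in differentiation Ctrl. The groups did not overlap, and the log2 difference was 2.74 (SE 0.32, limma adjusted p = 2.93e-05), a ratio of means of 6.57. With NAD+ it was at 7.40, 3.08 and 2.65 FPKM under proliferating and at 46.5, 49.4 and 51.2 FPKM under differentiation conditions. Gria1 was the 1 member called higher with NAD+, by 0.40 on the log2 scale under differentiation conditions (SE 0.07, limma adjusted p = 0.0260). This call was lost when any single sample other than NAD+ sample 1 was left out, with a limma adjusted p between 0.0502 and 0.0844. Under proliferating conditions the Gria1 values of Ctrl and NAD+ overlapped (limma adjusted p = 0.603).

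Gria2 (chr3:80681450-80802835) moved the other way with NAD+ under differentiation conditions, from 19.01, 16.81 and 17.76 FPKM to 13.63, 12.03 and 14.26, without overlap (log2 difference -0.42, SE 0.08, limma adjusted p = 0.0346). Its adjusted p was over 0.05 with any sample left out and under either scaling (0.0638 and 0.0644, limma). In proliferating Ctrl it was at 6.91, 15.3 and 12.7 FPKM, with sample 1 low, and in proliferating NAD+ at 8.34, 9.07 and 9.38. Gria2 was higher in differentiation Ctrl than in proliferating Ctrl by 0.69 (SE 0.22, limma adjusted p = 0.0214, and 0.0626 without differentiation Ctrl sample 1). Gria4 (chr9:4417896-4796234), the most abundant member, was at 33.2, 43.5 and 42.8 FPKM in proliferating Ctrl and at 30.0, 26.6 and 27.9 with NAD+, without overlap but without a call (-0.49, SE 0.12, limma adjusted p = 0.160). Under differentiation conditions it was at 30.8, 32.0 and 32.5 FPKM in Ctrl and 27.1, 27.1 and 29.9 with NAD+ (-0.18, limma adjusted p = 0.118). Gria4 was called lower in differentiation Ctrl than in proliferating Ctrl (-0.31, SE 0.10, limma adjusted p = 0.0184), but the difference was 0.11 after quantile normalization (limma adjusted p = 0.432). That call was also lost without differentiation Ctrl sample 1 or proliferating Ctrl sample 2 or 3 (limma adjusted p = 0.0570, 0.0721 and 0.0725). Gria3 was at 3.53, 5.31 and 8.52 FPKM in proliferating Ctrl and at 8.37, 7.69 and 6.9 with NAD+. Under differentiation conditions it was at 4.72, 4.8 and 4.83 in Ctrl and 3.61, 3.81 and 1.92 with NAD+, where the groups did not overlap but the difference was not called (-0.66, limma adjusted p = 0.171).

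The make-up of the AMPA subunit RNA differed between the conditions. Gria4 gave 63.4% ± 1.07 (SD, n = 3) of the summed FPKM of the 4 genes in proliferating Ctrl and 34.7% ± 0.414 in differentiation Ctrl, while Gria1 gave 9.51% ± 4.8 and 40.6% ± 1.75. With NAD+ under differentiation conditions, Gria1 reached 52.4% ± 1.19 and Gria2 went from 19.5% ± 1.63 to 14.2% ± 1.05, each without overlap with Ctrl. For 3 samples against 3, groups that do not overlap have an exact two-sided permutation p of 0.10, the smallest this design can give. The sum of the 4 genes was 91.7 ± 3.06 FPKM in differentiation Ctrl and 93.5 ± 3.35 with NAD+, a difference within the spread of the samples.

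**Figure D3:**
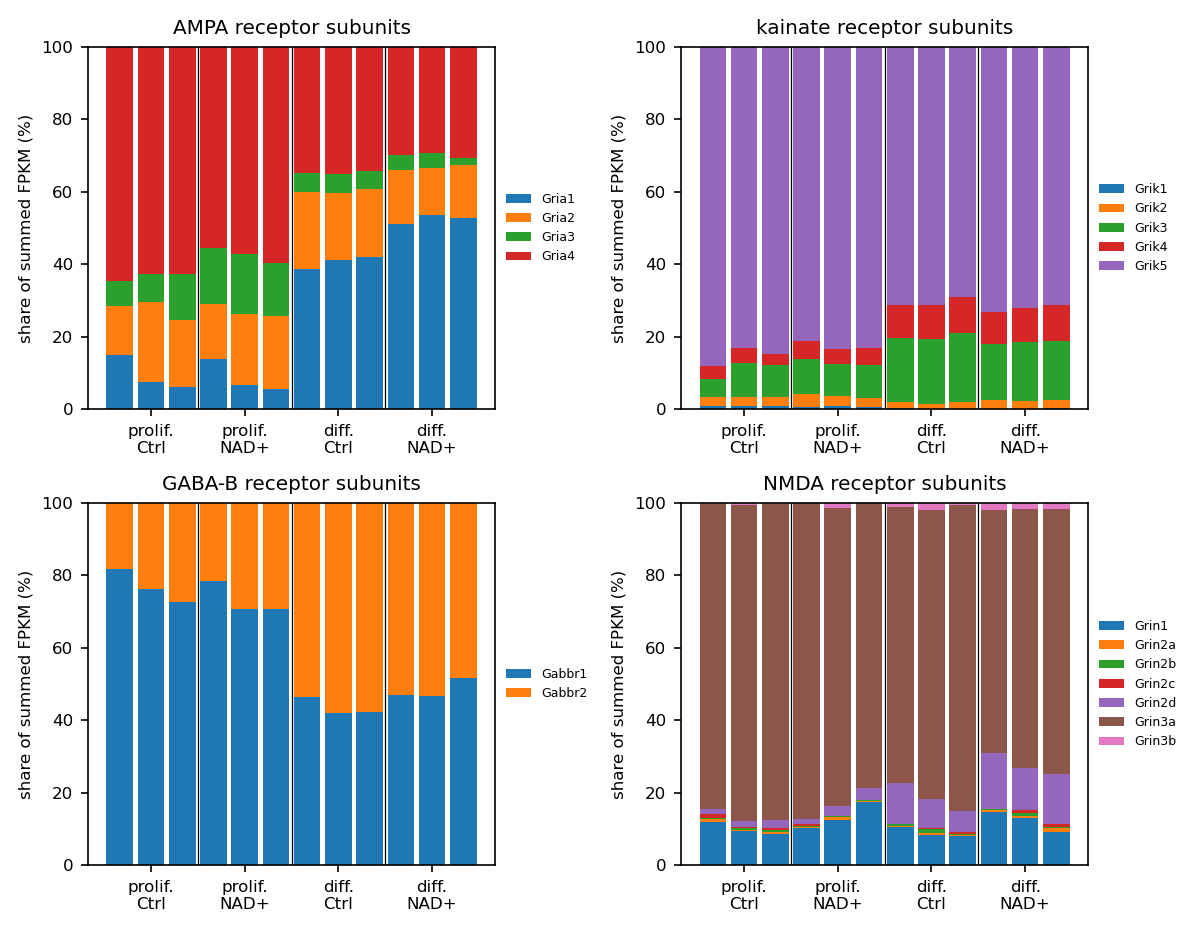
Share of each subunit in the summed FPKM (%) of its receptor family for the 12 samples, 3 bars a group in the order of the sample numbers. Gria4 fills most of the AMPA bars under proliferating conditions and Gria1 the largest share under differentiation conditions; Grik5 fills most of the kainate bars, Grin3a most of the NMDA bars, and the share of Gabbr2 is larger under differentiation conditions.

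Kainate receptors are built from the low-affinity subunits Grik1, Grik2 and Grik3, which can form channels alone, and the high-affinity subunits Grik4 and Grik5, which need a partner of the first kind. Grik5 (chr7:25009849-25072346) dominated, with 85.4% ± 2.56 (SD, n = 3) of the summed kainate FPKM in proliferating Ctrl and 70.5% ± 1.35 in differentiation Ctrl. It was at 24.3, 22.1 and 23.4 FPKM in proliferating Ctrl, 16.8, 17.1 and 18.1 in proliferating NAD+, 31.7, 31.8 and 29.8 in differentiation Ctrl and 27.1, 24.6 and 24.6 in differentiation NAD+. The NAD+ samples were lower than every Ctrl sample in each condition, by -0.42 (SE 0.08, limma adjusted p = 0.103) under proliferating and -0.29 (SE 0.06, limma adjusted p = 0.0382) under differentiation conditions. The latter call was lost under each scaling (limma adjusted p = 0.101 and 0.0742) and without any single sample other than NAD+ sample 1 (up to 0.129).

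Grik3 (chr4:125490700-125714173) was at 1.37, 2.52 and 2.45 FPKM in proliferating Ctrl and at 7.81, 7.97 and 8.22 in differentiation Ctrl, a log2 difference of 1.92 (SE 0.18, limma adjusted p = 5.78e-06). With NAD+ it was at 2.03, 1.85 and 1.99 FPKM under proliferating conditions, inside the Ctrl range, and at 5.73, 5.55 and 5.65 under differentiation conditions, below every Ctrl sample. The fall of 0.50 on the log2 scale in the latter (SE 0.06, limma adjusted p = 0.00951) was called under every alternative run. Grik4 (chr9:42518135-42944493) had the same order of groups, with 0.94, 1.10 and 0.89 FPKM in proliferating Ctrl, 1.00, 0.82 and 0.98 in proliferating NAD+, 4.16, 4.12 and 4.41 in differentiation Ctrl and 3.28, 3.24 and 3.39 in differentiation NAD+. It was higher in differentiation Ctrl by 2.01 (SE 0.12, limma adjusted p = 1.87e-07) and lower with NAD+ there by -0.35 (SE 0.07, limma adjusted p = 0.0445), a call lost with either scaling and without any single sample (limma adjusted p up to 0.132). Grik1 was low, at 0.22 to 0.23 FPKM in proliferating Ctrl and 0.05 to 0.15 in differentiation Ctrl (-0.85, limma adjusted p = 0.0165, and 0.0620 or 0.0570 without differentiation Ctrl sample 2 or 3), and Grik2 lay between 0.56 and 0.92 FPKM in all samples, with no call. The summed kainate level was 44.1 ± 0.737 FPKM in differentiation Ctrl and 35.2 ± 1.59 with NAD+, and 27.2 ± 0.569 against 20.97 ± 0.679 under proliferating conditions, without overlap in either.

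NMDA receptors need the subunit Grin1, which pairs with Grin2 subunits in the classical calcium-permeable receptor and with Grin3 subunits in receptors that admit less calcium. Grin3a (ENSMUSG00000039579, chr4:49661611-49845744) gave 86.3% ± 1.73 (SD, n = 3) of the summed NMDA subunit FPKM in proliferating Ctrl and 80.1% ± 4.11 in differentiation Ctrl, and exceeded Grin1 by 8.84 ± 1.57 times and 9.15 ± 1.67 times. It was at 6.43, 9.60 and 9.24 FPKM in proliferating Ctrl, 6.00, 5.26 and 4.93 in proliferating NAD+, 5.05, 5.44 and 5.72 in differentiation Ctrl and 3.32, 3.25 and 3.33 in differentiation NAD+. All NAD+ samples lay below all Ctrl samples of their condition. Under differentiation conditions Grin3a fell by 0.69 on the log2 scale (SE 0.08, limma adjusted p = 0.00809), a call made under every alternative run, and under proliferating conditions the difference was -0.62 (SE 0.17, limma adjusted p = 0.196). The difference of these effects was -0.08 (SE 0.20, limma adjusted p = 0.882). Grin3a was lower in differentiation Ctrl than in proliferating Ctrl by -0.61 (limma adjusted p = 0.00328).

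Grin1 was at 0.91, 1.02 and 0.92 FPKM in proliferating Ctrl and 0.69, 0.57 and 0.54 in differentiation Ctrl (-0.59, limma adjusted p = 0.0355), a call lost without any single Ctrl sample other than differentiation Ctrl sample 1 (up to 0.102). Grin2d was at 0.10, 0.20 and 0.25 FPKM in the former and 0.75, 0.56 and 0.41 in the latter (1.26, limma adjusted p = 0.00319). In the GENCODE annotation, 13.5% of the exonic bases of Grin1 and 9.66% of those of Grin2d also belong to genes of the opposite strand, and whether the counting used strand is not stated. With NAD+, Grin1 was at 0.70, 0.80 and 1.09 FPKM under proliferating and 0.73, 0.59 and 0.42 under differentiation conditions, and Grin2d at 0.10, 0.17 and 0.20 and at 0.77, 0.53 and 0.64, all overlapping Ctrl. The delta subunit Grid1, which organizes synapses rather than acting as a classical glutamate-gated channel, was at 8.95, 8.34 and 8.46 FPKM in proliferating Ctrl and 6.87, 5.75 and 5.57 with NAD+, without overlap (-0.50, SE 0.11, limma adjusted p = 0.131). Under differentiation conditions it was at 8.05, 8.87 and 8.05 FPKM in Ctrl and 7.37, 7.57 and 7.88 with NAD+ (-0.13, limma adjusted p = 0.314).

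Of the 7 metabotropic glutamate receptors listed, Grm5, which couples to calcium release, and Grm3, which lowers cyclic AMP, made up nearly all of the FPKM. Grm5 (chr7:87584168-88134907) was at 18.3, 30.8 and 31.9 FPKM in proliferating Ctrl and at 2.29, 5.66 and 2.56 in differentiation Ctrl, the largest fall among the members on the log2(FPKM + 0.1) scale (-2.98, SE 0.39, limma adjusted p = 6.95e-05). With NAD+ it was at 20.3, 20.8 and 19.8 FPKM under proliferating and at 4.90, 1.89 and 2.02 under differentiation conditions, overlapping Ctrl in each. Without Ctrl sample 1, which was low, Grm5 was called lower with NAD+ under proliferating conditions (-0.63, SE 0.06, limma adjusted p = 0.0452), against an adjusted p of 0.441 with it. Grm3 (chr5:9485541-9725170) was at 6.13, 7.93 and 7.30 FPKM in proliferating Ctrl, 4.14, 3.10 and 3.60 in proliferating NAD+, 1.89, 2.19 and 2.80 in differentiation Ctrl and 1.08, 1.64 and 1.25 in differentiation NAD+. The 4 groups did not overlap and stood in this order. The difference between the Ctrl groups was -1.60 (SE 0.19, limma adjusted p = 2.63e-05). The NAD+ differences were -0.96 (SE 0.15, limma adjusted p = 0.0789) and -0.75 (SE 0.20, limma adjusted p = 0.0826), so that neither was called. Grm4 was at 0.40 to 0.42 FPKM in proliferating Ctrl, 0.44 to 0.47 with NAD+, 0.14 to 0.27 in differentiation Ctrl and 0.10 to 0.21 with NAD+ (difference between the Ctrl groups -0.69, limma adjusted p = 0.0289). This call was lost without differentiation Ctrl sample 3 (limma adjusted p = 0.115) or any of the 3 proliferating Ctrl samples (0.0579 to 0.0621). Grm2, Grm6, Grm7 and Grm8 had means under 0.1 FPKM.

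**Figure D4:**
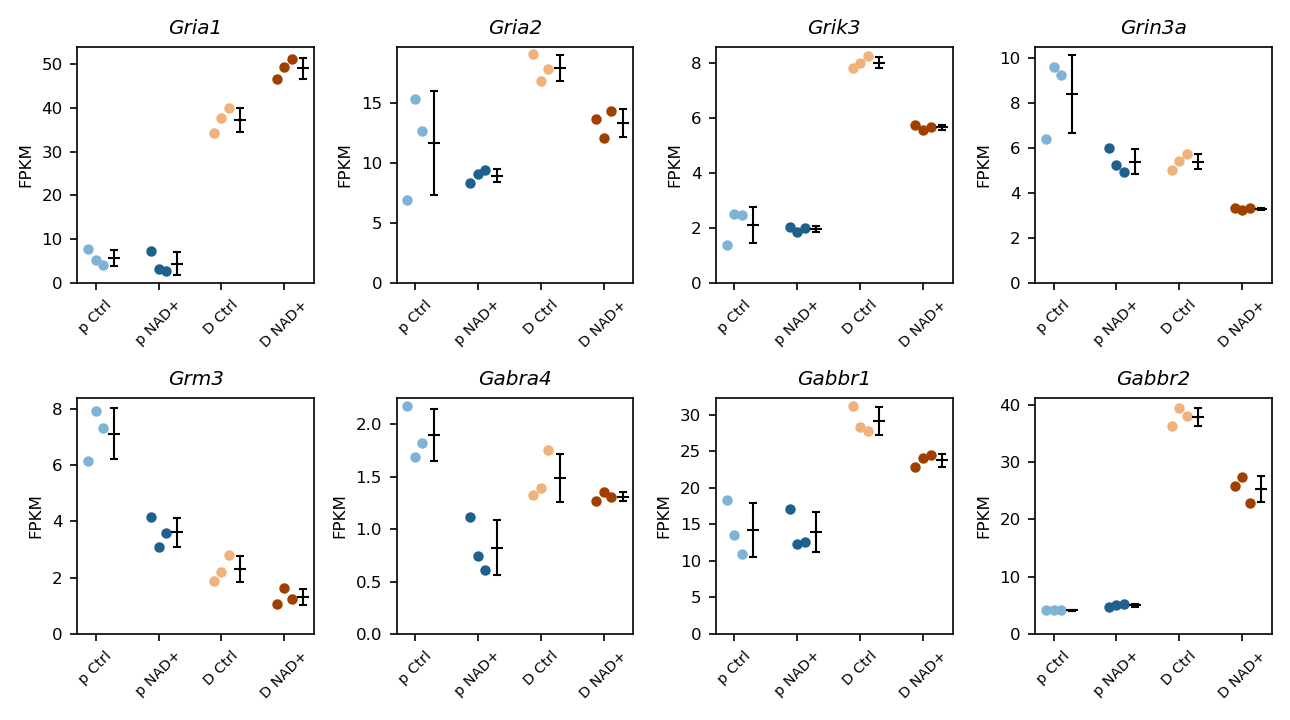
FPKM of 8 receptor genes in each of the 12 samples, with p for proliferating and D for differentiation conditions; the bars beside the points are the mean ± SD of 3 samples. The NAD+ samples of Grin3a and Grm3 lie below the Ctrl samples in each condition, those of Gabra4 under proliferating conditions, and those of Gria2, Grik3, Gabbr1 and Gabbr2 under differentiation conditions, where those of Gria1 lie above.

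GABA-A receptors usually combine alpha and beta subunits with a gamma or delta subunit. Of the 11 subunits listed, 5 were tested, and 4 of these lie in 1 cluster on chromosome 5 of mm10: Gabrg1 (70751047 to 70842617), Gabra2 (70957597 to 71095849), Gabra4 (71569749 to 71658308) and Gabrb1 (71658113 to 72149037). The last pair are read away from each other and share 46 exonic bases, 0.756% of those of Gabra4. Gabra4 was at 2.17, 1.69 and 1.82 FPKM in proliferating Ctrl and 1.12, 0.74 and 0.61 with NAD+, without overlap (-1.14, SE 0.24, limma adjusted p = 0.126). It was the 1 member that passed the rule of the study in that condition, with a ratio of means of 0.435. Under differentiation conditions Gabra4 was at 1.33, 1.39 and 1.75 FPKM in Ctrl and 1.27, 1.35 and 1.31 with NAD+ (-0.16, limma adjusted p = 0.525).

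The other genes of the cluster were not called with NAD+ under proliferating conditions. Gabra2 was at 3.46, 3.55 and 4.40 FPKM in proliferating Ctrl and 2.94, 1.98 and 2.14 with NAD+, without overlap (-0.68, SE 0.19, limma adjusted p = 0.183). Gabrb1 was at 0.83, 0.73 and 0.46 FPKM and at 0.58, 0.20 and 0.24, with overlap (-0.88, SE 0.38, limma adjusted p = 0.333). Gabrg1, the most abundant subunit of the family, was at 4.57, 7.43 and 11.4 FPKM and at 6.65, 7.0 and 5.77, inside the range of Ctrl. Under differentiation conditions Gabra2 was at 3.32, 3.46 and 3.90 FPKM in Ctrl and 4.0, 3.61 and 3.79 with NAD+, Gabrb1 at 1.38, 1.26 and 1.44 and at 1.20, 1.30 and 1.59, and Gabrg1 at 7.46, 4.83 and 8.24 and at 6.43, 3.81 and 3.17, each with overlap. Gabrb1 was higher in differentiation Ctrl than in proliferating Ctrl (0.95, SE 0.30, limma adjusted p = 0.0189, and 0.0538 or 0.0766 without sample 3 of differentiation or proliferating Ctrl), whereas the other 3 genes of the cluster were not called. Gabrd, the delta subunit of receptors outside synapses, was listed at 0.06, 0 and 0 FPKM in proliferating Ctrl and at 0 in proliferating NAD+. It was at 0.30, 0.30 and 0.17 FPKM in differentiation Ctrl, called higher than in proliferating Ctrl (1.58, SE 0.28, limma adjusted p = 0.000643) by a difference that was 0.30 with 1 and 3.76 with 0.01 added before log2. With NAD+ it was at 0.81, 0.54 and 0.54 FPKM under differentiation conditions, without overlap with Ctrl (1.04, SE 0.27, limma adjusted p = 0.0726), and passed the rule of the study (4.05% of all genes) with a ratio of means of 2.45. The rho subunit Gabrr1 was at 0 FPKM in all 6 differentiation samples, and Gabrr2, the higher of the 2, had a mean of 0.0833 FPKM over the 12 samples.

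The GABA-B receptor is an obligate pair of Gabbr1, which binds GABA, and Gabbr2, which couples to the G protein. Gabbr2 (ENSMUSG00000039809, chr4:46662305-46991873) was at 4.10, 4.24 and 4.14 FPKM in proliferating Ctrl and at 36.2, 39.3 and 38.0 in differentiation Ctrl, the largest rise among the members on the log2(FPKM + 0.1) scale (3.15, SE 0.08, limma adjusted p = 8.13e-10; ratio of means 9.10). With NAD+ it was at 4.72, 5.11 and 5.20 FPKM under proliferating conditions, above every Ctrl sample (0.26, SE 0.10, limma adjusted p = 0.282), and at 25.7, 27.4 and 22.9 under differentiation conditions, below every Ctrl sample (-0.58, SE 0.08, limma adjusted p = 0.0121, 0.0501 or 0.0508 without Ctrl sample 2 or 3, and 0.0576 with unmoderated variance). The difference between these NAD+ effects was -0.84 (SE 0.11, limma adjusted p = 0.0173). Gabbr2 was the 1 member of 23 called for this difference, against 0.467% of all genes. Without differentiation Ctrl sample 2, differentiation Ctrl sample 3 or proliferating NAD+ sample 3, the limma adjusted p of this difference was 0.0526, 0.0535 and 0.0641.

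Gabbr1 (chr17:37045966-37075067) was at 18.3, 13.6 and 11.0 FPKM in proliferating Ctrl and at 17.2, 12.3 and 12.6 with NAD+, with sample 1 highest in each group. It was at 31.3, 28.3 and 27.8 FPKM in differentiation Ctrl and 22.8, 24.0 and 24.5 with NAD+, without overlap (-0.29, SE 0.06, limma adjusted p = 0.0454), a call lost without any single sample and under each scaling. The difference between the Ctrl groups was 1.05 (SE 0.17, limma adjusted p = 0.000319). The ratio of Gabbr2 to Gabbr1 was 0.304 ± 0.0766 (SD, n = 3) in proliferating Ctrl, 0.368 ± 0.0809 in proliferating NAD+, 1.30 ± 0.127 in differentiation Ctrl and 1.07 ± 0.114 in differentiation NAD+. The last 2 groups did not overlap (exact permutation test, p = 0.10).

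Promoter sequence was taken from RefSeq (GRCm38.p6) for the members that were higher in differentiation Ctrl by the most and lower with NAD+ there, to show the bases before the RefSeq start of Gabbr2, Grik3 and Grik4. Of the 39 members, 29 had an entry in the table, with 36 promoters. A GC box (GGGCGG or CCGCCC, both strands), a motif bound by Sp-family factors, is in capitals in the 250 bases before the start, on the strand of the gene. The windows are chr4:46991715-46991964 (minus strand) for Gabbr2, chr4:125490446-125490695 (plus strand) for Grik3 and chr9:42944372-42944621 (minus strand) for Grik4. The starts of RefSeq and GENCODE differ. By GENCODE, Gabbr2 reaches to 46991873 and Grik4 to 42944493, so that part of each of these windows lies inside the gene. The GC boxes of Gabbr2 are in that part.
Gabbr2: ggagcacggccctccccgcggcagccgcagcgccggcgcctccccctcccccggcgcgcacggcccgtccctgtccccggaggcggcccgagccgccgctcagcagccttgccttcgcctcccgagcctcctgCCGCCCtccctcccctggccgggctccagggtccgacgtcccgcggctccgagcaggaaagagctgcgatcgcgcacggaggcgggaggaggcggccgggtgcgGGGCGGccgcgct
Grik3: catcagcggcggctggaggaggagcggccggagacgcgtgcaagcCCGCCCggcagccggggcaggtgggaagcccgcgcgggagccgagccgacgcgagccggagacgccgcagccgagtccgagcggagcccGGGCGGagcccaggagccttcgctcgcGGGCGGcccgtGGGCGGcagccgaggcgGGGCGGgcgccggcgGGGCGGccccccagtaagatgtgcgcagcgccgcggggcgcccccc
Grik4: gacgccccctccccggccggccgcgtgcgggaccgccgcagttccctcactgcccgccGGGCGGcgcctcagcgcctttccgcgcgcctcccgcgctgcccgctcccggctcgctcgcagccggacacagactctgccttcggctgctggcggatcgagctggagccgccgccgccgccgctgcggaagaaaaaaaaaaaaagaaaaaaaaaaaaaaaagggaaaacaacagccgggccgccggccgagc
These windows held 2, 6 and 1 GC boxes. Over 300 bases, from 250 before to 50 after the start, G and C made up 80.3% of the promoter of Gabbr2, 82.0% of that of Grik3 and 70.0% of that of Grik4. The median was 52.7% over all 32851 promoters and 60.2% over the 36 promoters of members. A GC box was present in 35.7% of all promoters and in 18 of the 36 promoters of members. Of the motifs searched first on both strands, the cyclic AMP response element TGACGTCA (1.79% of all promoters), its half-site TGACG (20.8%), the retinoic acid receptor half-site AGGTCA (16.3%) and the E-box CAGCTG (16.3%) had no match in these 3 promoters. The half-site TGACG, which lies inside the full element, was present in 5 of the 36 promoters of members, AGGTCA in 2, and the full element and the E-box in 0. A match of letters describes the window and shows no binding, and the absence of one shows only that these letters are not in it.

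**Figure D5:**
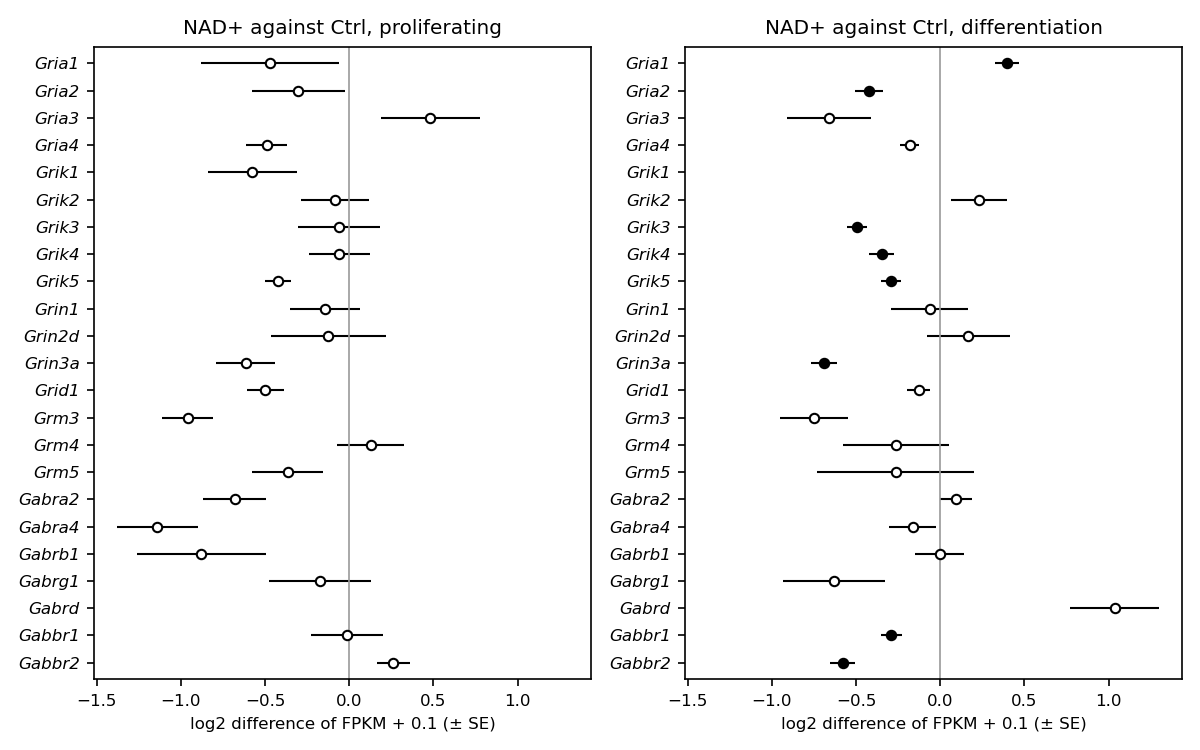
Log2 difference of FPKM + 0.1 between NAD+ and Ctrl (3 samples each) for the 23 receptor genes under proliferating (left) and differentiation conditions (right), with the standard error of the limma fit as bars. Filled points have an adjusted p under 0.05, which holds for 0 genes on the left and 8 on the right; genes without a point were under the filter.

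The proteins that accompany these receptors were described from lists of 36 receptor-associated genes and 20 genes of transmitter synthesis, uptake and release. With NAD+ under differentiation conditions, 1 of 31 tested receptor-associated genes was higher and 2 were lower, against 2.27% and 4.65% of all genes. Cacng5, an AMPA receptor regulatory protein of the TARP family, rose from 14.7, 16.0 and 13.7 FPKM to 27.2, 29.2 and 24.1 (0.85, SE 0.09, limma adjusted p = 0.00724). Shisa9, another auxiliary AMPA subunit, fell by 0.47 on the log2 scale (limma adjusted p = 0.0135) and the adhesion protein Nlgn3 fell by 0.46 (limma adjusted p = 0.0143). Under proliferating conditions, 1 of 31 tested genes was higher and 1 lower, against 0.145% of all genes called. Cacng5 rose there from 1.06, 1.5 and 1.34 FPKM to 3.77, 4.10 and 4.0 (1.55, SE 0.16, limma adjusted p = 0.0353) and Cacng8, a further TARP, fell from 15.5, 14.5 and 15.4 FPKM to 9.62, 8.87 and 8.83 (-0.73, SE 0.08, limma adjusted p = 0.0412). Between the Ctrl groups, 10 of 32 tested genes were higher and 15 lower under differentiation conditions, against 25% and 31.6% of all genes. Among them, Cacng5 differed by 3.42 (limma adjusted p = 6.16e-09), Shisa9 by 1.80 (limma adjusted p = 1.3e-07), Cacng8 by -2.60 (limma adjusted p = 9.86e-09) and Gsg1l, an AMPA receptor auxiliary protein, by -3.40 (limma adjusted p = 7.18e-08).

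Of the genes of transmitter handling, 4 of 14 tested were higher and 3 lower with NAD+ under differentiation conditions, against 2.27% and 4.65% of all genes. Under proliferating conditions 0 of 15 were called by limma, 6 had an unadjusted p under 0.05 (1 higher and 5 lower, against 15.4% of all genes), and 1 passed the rule of the study (3.01% of all genes). The median log2 difference under differentiation conditions was -0.18 for these and -0.05 for the receptor-associated genes, against -0.08 for all genes. The glutamine carrier Slc38a1 rose by 0.65 (limma adjusted p = 0.00457) and the glial glutamate transporter Slc1a3 by 0.36 (limma adjusted p = 0.0103), whereas the GABA transporter Slc6a11 fell by 0.62 (limma adjusted p = 0.00780) and the glutamate transporter Slc1a1 fell by 0.46 (limma adjusted p = 0.00829). Between the Ctrl groups, 7 of 14 were higher and 4 lower under differentiation conditions (25% and 31.6% of all genes), led by Slc1a1 (2.27), Slc38a1 (2.09) and Slc1a2 (1.58) among the higher and Slc1a4 (-0.75) among the lower, with limma adjusted p-values from 1.56e-08 to 1.71e-05. Slc1a2 and Slc1a3 also stand in the list of astrocyte markers. The chloride importer Slc12a2 rose with NAD+ from 9.51, 9.76 and 9.51 FPKM to 13.3, 13.4 and 13.0 under differentiation conditions (0.46, SE 0.05, limma adjusted p = 0.00755). The chloride exporter Slc12a5 was at 0.99, 0.90 and 1.07 FPKM in differentiation Ctrl and 1.29, 1.10 and 1.39 with NAD+ (0.32, limma adjusted p = 0.242), and it was higher in differentiation than in proliferating Ctrl by 0.67 (limma adjusted p = 0.00910).

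Other members differed in their NAD+ effect between the conditions at an unadjusted p under 0.05 only, 6 in all with Gabbr2, against 15.5% of all genes. With its sign, the log2 difference with NAD+ was higher under differentiation conditions for Gabra2 (0.78), Gabra4 (0.98), Gabrd (1.26) and Grid1 (0.37). It was lower there for Gria3 (-1.15), and the limma adjusted p-values were between 0.132 and 0.237. For Gabra2, Gabra4 and Grid1 the effect was smaller in size there, at 0.09, -0.16 and -0.13 against -0.68, -1.14 and -0.50 under proliferating conditions. Without sample 1 of Ctrl and of NAD+ under proliferating conditions, 5 members were called for this difference, where 2.07% of all genes were called: Gabbr2 (-0.87, limma adjusted p = 0.00964), Gria1 (1.07, limma adjusted p = 0.0180), Gabra2 (1.00, limma adjusted p = 0.0261), Gria4 (0.48, limma adjusted p = 0.0266) and Gabra4 (1.10, limma adjusted p = 0.0436).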

How the data were processed

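The authors mapped reads to mm10 with Hisat2, counted uniquely mapped reads with FeatureCounts and deposited FPKM values per gene, rounded to 0.01, in a table for each condition; the program that computed them is not given in the sources used here. The tables also hold the authors' own fold changes, p-values and q-values, which were not used. The FPKM columns of all 12 samples entered, and the number of further per-sample columns was 0. Read counts cannot be recovered, so depth is unknown and no counting error is given. The deposited FPKM values were not rescaled, and 0.1 was added before log2. Where the mean over the samples of a fit reached 0.1 FPKM, a gene was tested with limma 3.58.1 in R 4.3.3 (moderated variance with a trend, two-sided, Benjamini-Hochberg adjustment over all genes tested). Each NAD+ comparison used the 6 samples of its condition; the difference of the NAD+ effects and the comparison of the Ctrl groups used all 12. FPKM values of 0 were set to 0.0001 for ratios of means under the rule of the study. Members were given with every sample value when called, when among the 10 highest or the highest of their family; of the other lists, up to 4 genes with the smallest adjusted p per comparison and the chloride transporters were named. The members and lists were chosen with earlier results of these data known. The GC box was added after the other motifs had been searched. Positions are from GENCODE M21, in which all 39 gene IDs were found. The fit was tested on simulated data. Alternatives were 1 or 0.01 added before log2, no filter or a mean FPKM of at least 1, median-ratio scaling, quantile normalization, the replicate number as a block, unmoderated variance, and each sample left out. Python 3.11.15 with pandas 2.3.3 and matplotlib 3.10.9 was used for summaries and plots.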

Additional observations from a re-analysis of the deposited data

Results flagged for a closer look

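The effect of NAD+ on Gabbr2 differed between the conditions by -0.84 on the log2 scale (limma adjusted p = 0.0173, between 0.00964 and 0.0641 over the alternatives), in a test of the difference itself. All 3 NAD+ samples were above all 3 Ctrl samples under proliferating conditions and below them under differentiation conditions. The cause was not tested.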

How the results depend on the processing

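For the 43 results of a member with an unadjusted p under 0.05 in a comparison, 763 values were computed under the alternatives, of which 684 kept their direction and their side of the threshold, 76 lost and 2 gained a call, and 1 changed sign, the difference of Gria4 between the Ctrl groups (0.11 after quantile normalization). Outside these 43, calls were gained by Grm5 without proliferating Ctrl sample 1, by Gria1 and Gria4 for the difference of the NAD+ effects without the proliferating samples numbered 1, and by Gabrr1 and Grin2c between the Ctrl groups without the filter. For NAD+ under differentiation conditions, the 8 called members became 5 without the filter, 4 with either scaling, 5 with the replicate block and 3 with unmoderated variance, and 2 to 5 with 1 sample left out; Gabrd no longer passed the rule of the study with a mean FPKM of at least 1 (0 members), and 1 passed with any sample left out. For NAD+ under proliferating conditions, 0 or 1 members were called with 1 sample left out, and 1 to 3 passed the rule of the study, with 2 passing without the filter and 3 without the pair of samples numbered 1, which was left out after seeing the data. For the difference of the NAD+ effects, 0 or 1 members were called with 1 sample left out and 5 without that pair. Between the Ctrl groups, 17 members became 11 with a mean FPKM of at least 1, where 7 in place of 11 passed the rule of the study, and 13 to 17 and 9 to 12 with 1 sample left out. Median-ratio scaling moved the median of all genes by 0.14 for the difference of the NAD+ effects and by 0.12 between the Ctrl groups, and quantile normalization by 0.14 for the former. Samples with the same number correlated around their group means at 0.111, 0.0215 and 0.0529 under proliferating and 0.0410, 0.0432 and 0.0257 under differentiation conditions, across genes, so the numbers were not taken to pair the samples. Every differentiation sample correlated best with its own number, whereas proliferating Ctrl sample 3 did so with NAD+ sample 2 (0.0734). The causes were not tested. Depth is unknown, and the values of genes under 0.1 FPKM are limited by the rounding.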
